A study of Mus musculus with 30 samples.

Results

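The window described here is the last interval of a differentiation course, day 8 against day 6, in mouse embryonic stem (ES) cells that served as the control of the study. These are Jmj (Jarid2) Fl/Fl, with both alleles of the Polycomb-associated gene Jarid2 floxed but intact, and the labels call them wild-type. Differentiation was started by withdrawing leukaemia inhibitory factor (LIF), which keeps mouse ES cells undifferentiated. Total RNA of each whole culture was hybridised to an Affymetrix array, with 2 arrays of Fl/Fl cells at day 8 and 2 at day 6, so that 4 of the 30 arrays of the series carry the comparison. The series also holds 2 Fl/Fl arrays at each of days 0, 2 and 4, which are used here to place the changes in the course, and 20 arrays of Jmj-null cells, which enter through the estimate of the spread and the choice of the probe set for each gene. Each gene is represented by 1 probe set, giving 18194 genes. The labels call the arrays of a day biological replicates and do not say whether they came from separate cultures. The p-values and standard errors (SE) below therefore measure a spread between arrays. That spread is pooled over all 30 arrays, most of them null, and is not that of the 4 compared arrays alone.

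The primitive streak is the strip of the early embryo where epiblast cells lose their epithelial character and move inward as mesoderm and endoderm. Nodal, Wnt and FGF signals act there together with transcription factors of the T-box, Mix and LIM families, and ES cells that differentiate without LIF pass through a similar phase. The interstitial matrix, made mainly by mesenchymal cells and fibroblasts, is built from fibrillar collagens that are trimmed, hydroxylated and crosslinked by dedicated enzymes and decorated by fibrillins, periostin and small proteoglycans.

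At day 8, genes of the streak were lower than at day 6 and genes of the interstitial matrix were higher. Of 50 measured streak genes, 10 were lower and 0 higher, among them the transcription factors Mixl1, Evx1 and Sp5 and the signals Nodal, Fgf8, Lefty1 and Lefty2. Of 72 measured matrix genes, 14 were higher and 1 was lower, led by Postn, Loxl3, Col1a2, Tgfbi and Col6a1. Over all 18194 genes, limma with a Benjamini-Hochberg adjusted p under 0.05 called 586 genes (3.22%), of which 259 were higher at day 8 (1.42%) and 327 lower (1.8%). The change was at least 2-fold for 111 of the higher and 134 of the lower genes. Of the 586 genes, 583 had both day 8 arrays on one side of both day 6 arrays, which selection by the call favours. Among all 8378 genes with an array at or over an intensity of 50, 36.4% were lower and 30.5% higher in both arrays.

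How the called genes divide into higher and lower depends on the scaling. After centring of the arrays on the median of the brighter genes, which moved the median change of all genes to 0.06 on the log2 scale, 285 genes were higher and 168 lower, while the streak count stayed at 10 lower and the matrix count was 15 higher. Many of the higher genes are dim: 132 of the 259 had all 4 arrays under an intensity of 50, against 39 of the 327 lower genes. The day 8 arrays had mean intensities of 354.5 and 353.5, the day 6 arrays of 349.8 and 353.7, and the replicates correlated at 0.9953 at day 8 and 0.9967 at day 6 across genes. The 3′ to 5′ signal ratio of the actin control probes, a sign of RNA quality, was 1.63 and 1.56 at day 8 and 1.55 and 1.48 at day 6. No 2 arrays held identical values.

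Jarid2 had intensities of 319 and 416 at day 8, against 589 and 481 at day 6 (adjusted p = 0.418). The null arrays also gave signal on this probe set, with 920 and 383 at day 8 and 781 to 1206 at day 6, so it does not check the labelled genotype. Pou5f1, which encodes the ES cell factor Oct4, had 350 and 96 at day 8, against 384 and 494 at day 6 (adjusted p = 0.0884), far under its mean of 4418 at day 4. Nanog and Sox2, its partners in the pluripotency network, overlapped between the days, with 267 and 124 at day 8 against 160 and 209 at day 6 for Nanog, and 367 and 145 at day 8 against 231 and 183 at day 6 for Sox2. All 3 genes were higher in replicate 1 of day 8 than in replicate 2. In whole cultures, fewer cells of a type and less RNA per cell cannot be told apart, which holds for every value below.

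The day 8 replicates also differed in the genes that moved. Only genes with an array at or over an intensity of 50 are counted here, since dim genes often tie. Replicate 2 was the lower one in 77.1% of the 288 such lower genes and the higher one in 71.7% of the 127 such higher genes. Among the 7963 such genes that did not pass, replicate 2 was lower in 52.6% and higher in 46.2%. The plot of the 4 arrays for the streak and matrix genes shows both replicates. The comparison called 606 genes without replicate 1 of day 8, 294 without replicate 2 of day 8, 263 without replicate 1 of day 6 and 306 without replicate 2 of day 6.

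**Figure D1:**
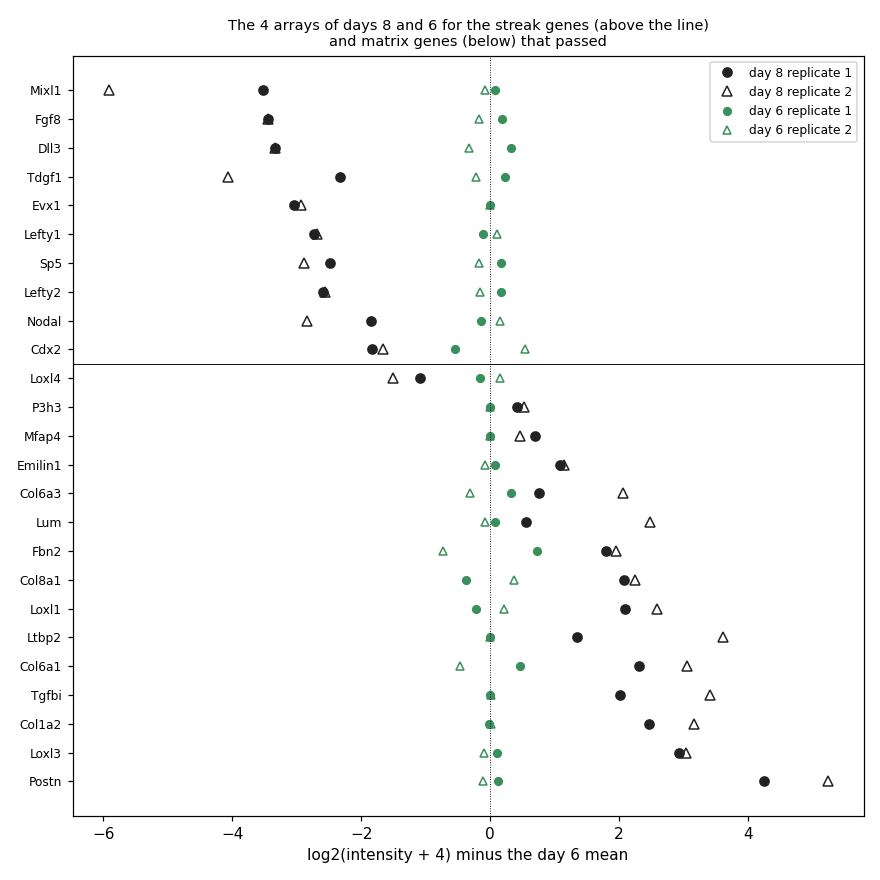
Each row is 1 streak gene (above the line) or matrix gene (below) that passed, and the x axis gives log2(intensity + 4) in each array minus the mean of the 2 day 6 arrays. Day 8 arrays are black and day 6 arrays green, with circles for replicate 1 and triangles for replicate 2. The day 8 arrays lie on one side of the day 6 arrays for each gene, which selection by the call favours. Mixl1 (149 and 25), Ltbp2 (19 and 106) and Lum (10 and 49) are spread most between the day 8 arrays.

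To place the genes that the results turn on in the genome, promoter windows of 3 streak and 3 matrix genes are shown, those with the largest called changes among the members with an entry in the promoter table. Each window runs from 250 bases before to 50 bases after the start of the gene in RefSeq, build GRCm38.p6, written 5′ to 3′ in the direction of transcription. Of 25 called streak and matrix genes, 16 have an entry. Capitals mark matches on either strand to 5 short motifs, and a match on the opposite strand appears as the reverse complement. TATAAA, a core promoter element, is bound by the TATA-binding protein. CCAAT, another promoter element, is bound by NF-Y. The T-box factors of the streak bind TCACACCT. The TCF and LEF factors of the Wnt pathway bind CTTTGAT. The SMAD factors of the Nodal and TGF-beta pathways bind CAGAC. No match overlaps another in these windows. The windows are those of Dll3 (chr7:28301736-28302035, minus strand), Tdgf1 (chr9:110946109-110946408, minus strand), Evx1 (chr6:52313248-52313547, plus strand), Postn (chr3:54359017-54359316 and, for its second listed start, chr3:54360857-54361156, plus strand), Col1a2 (chr6:4505368-4505667, plus strand) and Tgfbi (chr13:56609336-56609635, plus strand).
Dll3: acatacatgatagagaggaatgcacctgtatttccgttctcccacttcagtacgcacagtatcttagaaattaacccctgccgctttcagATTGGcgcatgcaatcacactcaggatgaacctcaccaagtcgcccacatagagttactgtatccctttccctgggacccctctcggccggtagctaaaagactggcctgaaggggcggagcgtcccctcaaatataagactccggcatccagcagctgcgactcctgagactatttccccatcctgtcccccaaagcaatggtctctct
Tdgf1: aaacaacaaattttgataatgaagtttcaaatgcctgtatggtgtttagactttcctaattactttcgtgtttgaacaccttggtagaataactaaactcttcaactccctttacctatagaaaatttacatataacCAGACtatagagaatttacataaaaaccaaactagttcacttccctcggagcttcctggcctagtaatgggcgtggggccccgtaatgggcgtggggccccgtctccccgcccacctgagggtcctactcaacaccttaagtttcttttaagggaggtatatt
Evx1: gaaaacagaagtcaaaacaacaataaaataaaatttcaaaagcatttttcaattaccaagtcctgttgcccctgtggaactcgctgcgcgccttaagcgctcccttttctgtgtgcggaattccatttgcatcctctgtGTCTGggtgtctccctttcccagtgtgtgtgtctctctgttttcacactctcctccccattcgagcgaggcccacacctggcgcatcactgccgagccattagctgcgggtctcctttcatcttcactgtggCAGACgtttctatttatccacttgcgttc
Postn, start 1: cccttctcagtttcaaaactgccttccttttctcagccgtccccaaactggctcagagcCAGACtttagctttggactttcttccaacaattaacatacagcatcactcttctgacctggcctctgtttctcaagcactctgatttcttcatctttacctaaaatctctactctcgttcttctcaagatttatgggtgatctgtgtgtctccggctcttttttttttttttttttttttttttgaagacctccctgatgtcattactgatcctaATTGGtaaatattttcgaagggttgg
Postn, start 2: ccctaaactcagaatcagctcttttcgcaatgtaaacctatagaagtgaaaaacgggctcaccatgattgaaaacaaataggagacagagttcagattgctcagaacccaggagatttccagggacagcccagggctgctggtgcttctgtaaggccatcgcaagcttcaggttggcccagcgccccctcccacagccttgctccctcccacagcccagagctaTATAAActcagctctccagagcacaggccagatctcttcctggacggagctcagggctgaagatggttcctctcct
Col1a2: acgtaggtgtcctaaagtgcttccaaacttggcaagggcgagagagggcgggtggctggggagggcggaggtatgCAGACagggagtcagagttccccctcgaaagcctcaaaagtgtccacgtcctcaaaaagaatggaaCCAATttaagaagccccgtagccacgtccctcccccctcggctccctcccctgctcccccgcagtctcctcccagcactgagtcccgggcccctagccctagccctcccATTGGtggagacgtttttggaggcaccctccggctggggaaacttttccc
Tgfbi: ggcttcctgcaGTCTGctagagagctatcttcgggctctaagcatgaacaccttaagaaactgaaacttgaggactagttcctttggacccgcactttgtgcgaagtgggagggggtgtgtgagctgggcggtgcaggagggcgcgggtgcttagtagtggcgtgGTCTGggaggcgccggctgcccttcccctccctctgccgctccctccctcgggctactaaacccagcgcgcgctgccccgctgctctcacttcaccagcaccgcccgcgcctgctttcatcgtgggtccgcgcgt

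The SMAD letters CAGAC were found in the windows of Tdgf1, Evx1, Postn (first start), Col1a2 and Tgfbi, and 49.6% of all 32851 windows in the table hold them. The second Postn window holds TATAAA with its first base at -26 from the start, a match found in 13.6% of all windows. Col1a2 holds CCAAT at -109 in the direction of transcription and a second match on the opposite strand at 1, while Dll3 holds 1 match on the opposite strand at -160 and the first Postn window 1 at 25, with CCAAT in 37.4% of all windows. None of the 7 windows holds the T-box letters TCACACCT (1.28% of all windows) or the TCF/LEF letters CTTTGAT (3.73%). These matches describe the letters only.

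Of the 20 measured streak transcription factors, 4 were lower at day 8 than at day 6 (20%, beside 1.8% of all genes). These were Mixl1, Evx1, Sp5 and Cdx2. Mixl1, a homeobox factor of the streak, had intensities of 149 and 25 at day 8, against 1843 and 1658 at day 6. Both day 8 arrays were far below both day 6 arrays, although the day 8 arrays differed from each other. The change was -4.72 ± 0.96 on the log2 scale (SE, limma adjusted p = 0.00627). This was the largest fall among called genes with non-overlapping arrays, unnamed gene models left out. Mixl1 had been at 5 on all arrays of days 0 and 2 and at 1964 and 2110 at day 4.

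Evx1, a homeobox factor of the posterior streak, had 10 and 11 at day 8, against 111 and 111 at day 6. The groups were far apart with almost no spread inside them, and the log2 change was -2.99 ± 0.53 (SE, adjusted p = 0.0017). This SE pools the spread of all groups, and it was 0.159 in the fit of the 10 Fl/Fl arrays alone. Sp5, a zinc finger factor and Wnt target, had 108 and 80 at day 8, against 701 and 549 at day 6 (log2 change -2.69, adjusted p = 0.0296). At day 8 Sp5 was still above its values of 18 and 7 at day 0. Cdx2, a caudal homeobox factor of posterior mesoderm and of trophoblast, had 12 and 14 at day 8, against 35 and 79 at day 6 (log2 change -1.75, adjusted p = 0.00138), a fall among dim values.

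A further 3 factors of the streak and its anterior end had differences within the range of the called factors and did not pass. Eomes, the T-box factor of early mesoderm and endoderm, had 439 and 271 at day 8, against 2244 and 1345 at day 6 (adjusted p = 0.192). Lhx1, a LIM homeobox factor, had 59 and 35 at day 8, against 745 and 450 at day 6 (adjusted p = 0.124). Gsc, the organiser homeobox factor, had 12 and 8 at day 8, against 126 and 87 at day 6 (adjusted p = 0.0989). For each of these the day 8 arrays lay below both day 6 arrays. Their spread in the fit is taken over all groups, and in the fit of the 10 Fl/Fl arrays alone (the alternative with the null arrays left out) Eomes, Lhx1 and Gsc passed, with adjusted p of 0.0344, 0.013 and 0.00618.

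The other factors on the list were mostly not expressed in this window. Mesp1, Mesp2, Tbx6, Msgn1, Cdx1, Cdx4, Hes7, Ripply2 and Sp8 stayed at or under 11 in all 4 arrays. Snai1, which represses E-cadherin at the streak, had 84 and 82 at day 8, against 152 and 135 at day 6 (adjusted p = 0.893). Otx2, an anterior epiblast factor, had 67 and 53 at day 8, against 160 and 117 at day 6 (adjusted p = 0.402). Tcf15, a factor of paraxial mesoderm, had 79 and 69 at day 8, against 39 and 59 at day 6 (adjusted p = 0.783), and Foxa2, an endoderm and node factor, had 12 and 10 at day 8, against 4 and 4 at day 6. Over the 20 measured factors the median log2 change was -0.23, with 4 lower, 0 higher and 16 that did not pass, against a median of 0 over all genes. T was on the list and is not analysed here.

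**Figure D2:**
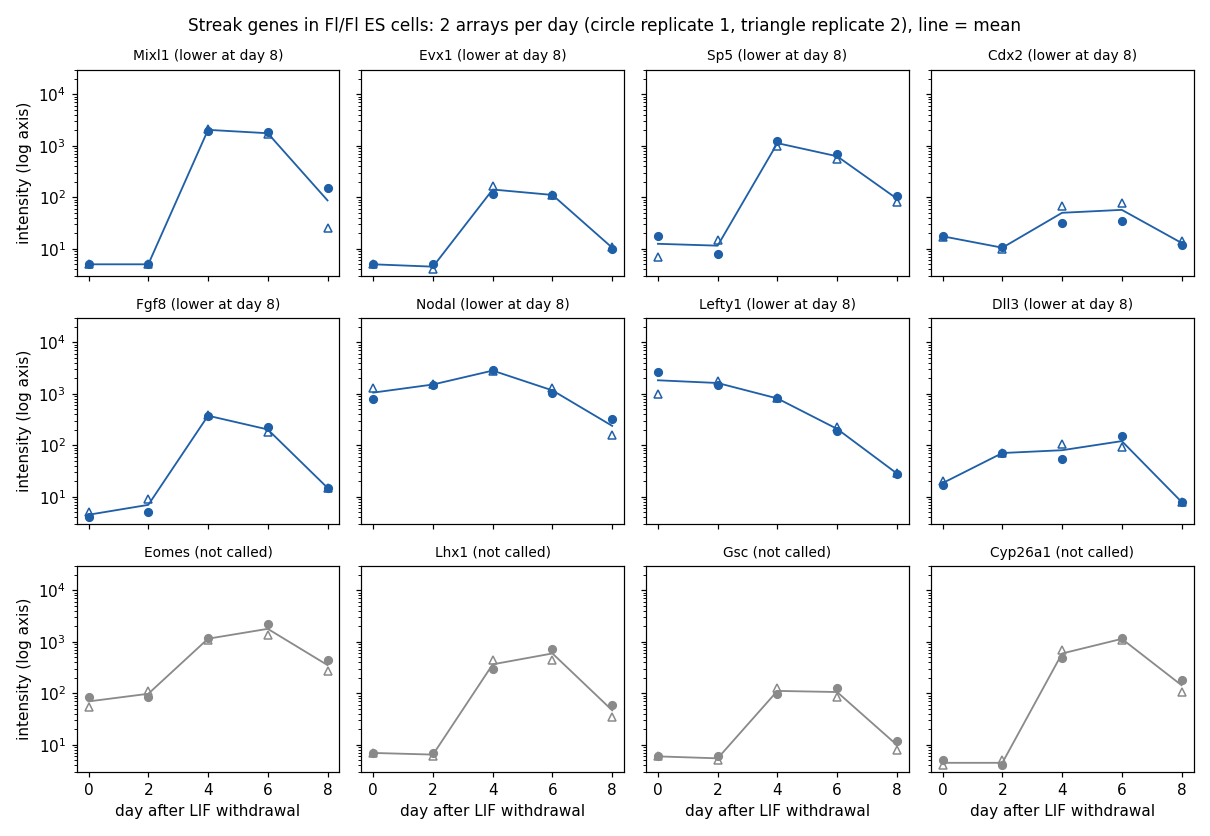
Intensity on a log axis against the day after LIF withdrawal for 12 streak genes in Fl/Fl cells, with circles for replicate 1, triangles for replicate 2 and a line through the daily means. The 12 were picked for display, and of the 50 listed genes that were measured 10 were called lower. The 8 blue genes were lower at day 8 than at day 6 and the 4 grey ones did not pass. Mixl1, Evx1, Sp5, Fgf8, Lhx1 and Gsc are near the floor at days 0 and 2, high at days 4 and 6 and low at day 8, while Lefty1 declines through the whole course.

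Among the secreted signals of the streak, a ligand, a co-receptor and 2 antagonists of the Nodal pathway fell. Nodal itself, a TGF-beta family ligand that induces mesoderm and endoderm, had 319 and 159 at day 8, against 1047 and 1284 at day 6. Both day 8 arrays were below both day 6 arrays, and the log2 change was -2.34 ± 0.33 (SE, adjusted p = 0.000174). Tdgf1, which encodes the Nodal co-receptor Cripto, had 558 and 164 at day 8, against 3290 and 2400 at day 6 (log2 change -3.20, adjusted p = 0.0173). Replicate 2 was the lower of the day 8 arrays for both genes, and Tdgf1 did not pass without it (adjusted p = 0.334).

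The feedback antagonists of Nodal changed with it. Lefty1 had 28 and 29 at day 8, against 192 and 225 at day 6 (log2 change -2.71, adjusted p = 0.00171). Lefty2 had 42 and 43 at day 8, against 308 and 245 at day 6 (log2 change -2.58, adjusted p = 0.0037). Both genes were nearly equal in the day 8 arrays, and no day 8 value came near a day 6 value. Acvr2b, an activin and Nodal receptor, had 268 and 294 at day 8, against 463 and 460 at day 6, and did not pass (adjusted p = 0.192).

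Fgf8, which drives the exit of mesoderm cells from the streak, had 15 and 15 at day 8, against 229 and 178 at day 6 (log2 change -3.44 ± 0.76, SE, adjusted p = 0.0115). Its values at days 0 and 2 were between 4 and 9, so the day 8 level was close to the start of the course. Dll3, a Notch ligand of the presomitic mesoderm that dampens Notch signalling, had 8 and 8 at day 8, against 149 and 93 at day 6 (log2 change -3.34, adjusted p = 0.0126). Dll3 was lower at day 8 than in any other Fl/Fl array, its lowest earlier value being 17 at day 0. Fgf5, an FGF of the primed epiblast, had 35 and 20 at day 8, against 121 and 74 at day 6 (adjusted p = 0.166).

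Several receptors, antagonists and enzymes of the streak had lower values that did not pass over all arrays. Aplnr, the apelin receptor of migrating mesoderm, had 124 and 123 at day 8, against 1000 and 580 at day 6 (adjusted p = 0.317). Cyp26a1, which degrades retinoic acid, had 181 and 108 at day 8, against 1190 and 1105 at day 6 (adjusted p = 0.123). Fst, the activin antagonist follistatin, had 197 and 99 at day 8, against 635 and 730 at day 6 (adjusted p = 0.211). In all 3 the day 8 arrays lay below the day 6 arrays, and all 3 passed in the fit of the Fl/Fl arrays alone, as did Rspo3 and Wnt5b. That fit found 17 streak genes lower and 1, Foxa2, higher, and it lost Cdx2 (adjusted p = 0.11).

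The null arrays of day 8 were far apart for several streak genes that passed in the Fl/Fl arrays alone, with 3450 and 177 for Eomes, 3001 and 26 for Lhx1 and 1130 and 17 for Aplnr, and close for others, with 1203 and 1181 for Nodal. The part of this spread in the difference between the fits was not tested.

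Other Wnt pathway genes than Sp5, and Bmp4, did not pass. Wnt3, the Wnt that starts the streak, had 126 and 61 at day 8, against 208 and 297 at day 6 (adjusted p = 0.243). Wnt5a, a non-canonical Wnt, overlapped between the days, with 424 and 472 at day 8 against 654 and 321 at day 6. Axin2, a general target of canonical Wnt signalling, had 567 and 647 at day 8, against 668 and 762 at day 6 (adjusted p near 1). Sp5, also a Wnt target, was thus called lower while Axin2 was not, and this contrast between the genes was not tested. Notum, a secreted Wnt inhibitor, had 223 and 127 at day 8, against 124 and 119 at day 6, and Bmp4, a mesoderm-inducing BMP, had 3069 and 2705 at day 8, against 2623 and 3185 at day 6.

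Over the 30 ligands, receptors and antagonists, 6 were lower, 0 were higher and 24 did not pass, with a median log2 change of -0.77. With the transcription factors included, 10 of 50 streak genes were lower, or 20%, beside 1.8% of all genes. Of the 50 genes, 18 had all 4 arrays under 50. Of the other 32, both day 8 arrays were below both day 6 arrays in 26, above in 3 and overlapping in 3, with a median log2 change of -1.72. Among all 8378 genes with an array at or over 50, 36.4% were lower in both arrays, 30.5% were higher and the median was -0.03.

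Single arrays decided several of these calls. Evx1, Nodal and Lefty1 passed with any 1 of the 4 arrays left out. Mixl1 did not pass without replicate 2 of day 8 (adjusted p = 0.168) or replicate 1 of day 6 (adjusted p = 0.0617). Fgf8 and Sp5 failed without any 1 of the 4 arrays, with adjusted p of 0.0509 to 0.117 for Fgf8 and of 0.0693 to 0.243 for Sp5. Dll3 failed without any array but replicate 2 of day 6, Tdgf1 without any but replicate 1 of day 8, Lefty2 without replicate 1 of day 6 (adjusted p = 0.0578) and Cdx2 without replicate 2 of day 6 (adjusted p = 0.0542). The count of streak genes lower was 7 without replicate 1 of day 8, 5 without replicate 2 of day 8, 4 without replicate 1 of day 6 and 6 without replicate 2 of day 6.

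Interstitial matrix genes went the other way. Col1a2, a chain of type I collagen, had 1596 and 2597 at day 8, against 284 and 291 at day 6. Every day 8 value was above every day 6 value by a wide margin, and the log2 change was 2.81 ± 0.50 (SE, adjusted p = 0.00179). Its partner chain Col1a1 had 6250 and 6961 at day 8, against 1377 and 1799 at day 6 (log2 change 2.06, adjusted p = 0.112), and Col3a1, which forms fibrils with type I collagen, had 2045 and 2755 at day 8, against 283 and 336 at day 6 (log2 change 2.93, adjusted p = 0.0664). Neither Col1a1 nor Col3a1 passed, although both were above day 6 in both arrays, and Col3a1 passed in the fit of the Fl/Fl arrays alone (adjusted p = 0.0186), in which Col1a2 did not (adjusted p = 0.0693).

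The microfibrillar and network collagens were called from lower levels. Col6a1, a chain of the beaded-filament collagen VI, had 64 and 111 at day 8, against 15 and 6 at day 6 (log2 change 2.68 ± 0.23, SE, adjusted p = 1.03e-07). Col6a3 had 15 and 43 at day 8, against 10 and 5 at day 6 (adjusted p = 0.000725), all within dim values, and Col6a2 stayed between 7 and 9. Col8a1, a short-chain collagen of vessel walls and mesenchyme, had 253 and 285 at day 8, against 43 and 75 at day 6 (log2 change 2.16, adjusted p = 0.00789). The fibrillar collagen Col5a1 had 2086 and 2711 at day 8, against 1975 and 2268 at day 6, which overlapped.

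Col11a1 (1903 and 1968 at day 8, against 465 and 698 at day 6, adjusted p = 0.33) and Col5a2 (464 and 598 at day 8, against 134 and 187 at day 6, adjusted p = 0.535) were higher in both arrays without passing. Over the 20 collagens, 4 were higher (20%, beside 1.42% of all genes) and 0 lower, with a median log2 change of 0.53. Of these 20, 8 had mean intensities under 50 on both days.

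Of the 34 other interstitial matrix genes, Postn had the largest rise. Postn, a matricellular protein of mesenchyme and developing valves, had 1149 and 2282 at day 8, against 62 and 52 at day 6. It had been between 9 and 11 in all 6 arrays of days 0, 2 and 4, and the log2 change from day 6 was 4.74 ± 0.29 (SE, adjusted p = 5.48e-10). Tgfbi, a TGF-beta induced adhesion protein related to periostin, had 318 and 841 at day 8, against 75 and 76 at day 6 (log2 change 2.71, adjusted p = 3.65e-05). The day 8 arrays of both genes were well above day 6, with replicate 2 higher than replicate 1.

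Fbn2, the microfibril protein fibrillin 2, had 342 and 380 at day 8, against 161 and 56 at day 6 (log2 change 1.87, adjusted p = 0.0354). Ltbp2, which binds microfibrils, had 19 and 106 at day 8, against 5 and 5 at day 6 (log2 change 2.48, adjusted p = 0.000613). Lum, a small proteoglycan that spaces collagen fibrils, had 10 and 49 at day 8, against 6 and 5 at day 6 (adjusted p = 0.00641). In Ltbp2 and Lum most of the rise lay in replicate 2 of day 8, and neither passed in the fit of the Fl/Fl arrays alone. Emilin1 (16 and 17 at day 8, against 6 and 5 at day 6) and Mfap4 (9 and 7 at day 8, against 4 and 4 at day 6), both elastic fibre proteins, passed with little spread between arrays and stayed under 50 throughout.

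Several abundant matrix genes did not pass. Fn1, fibronectin, had 13545 and 16136 at day 8, against 15890 and 16986 at day 6 (log2 change -0.15). Thbs1, thrombospondin 1, had 8442 and 8869 at day 8, against 4538 and 6982 at day 6 (log2 change 0.62), and Tnc, tenascin C, had 1179 and 1105 at day 8, against 811 and 930 at day 6 (log2 change 0.39). Vcan, the proteoglycan versican, had 625 and 790 at day 8, against 553 and 562 at day 6. Over the 34 members of the list, 7 were higher (20.6%, beside 1.42% of all genes) and 0 lower. The median log2 change was 0.28, and 19 had means under 50 on both days.

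Enzymes that crosslink collagen and elastin were higher in part. Loxl3, a lysyl oxidase-like enzyme, had 102 and 111 at day 8, against 11 and 9 at day 6 (log2 change 2.98 ± 0.19, SE, adjusted p = 1.03e-09). Loxl1, which acts on elastic fibres, had 420 and 599 at day 8, against 82 and 112 at day 6 (log2 change 2.34, adjusted p = 0.00431). Lox itself had 376 and 481 at day 8, against 63 and 133 at day 6, with an adjusted p of 0.179. Loxl4 went down, with 28 and 20 at day 8, against 57 and 72 at day 6 (log2 change -1.30, adjusted p = 0.00856), so that the family did not move as one.

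The collagen chaperone Serpinh1 had 11010 and 12255 at day 8, against 9071 and 8985 at day 6 (adjusted p = 0.916), and the lysyl hydroxylase Plod2 had 4343 and 4435 at day 8, against 2456 and 3062 at day 6 (adjusted p = 0.445). P3h3, a prolyl hydroxylase, passed at 8 and 9 at day 8, against 5 and 5 at day 6. Of the 18 processing genes, 3 were higher (16.7%) and 1 lower (5.56%), beside 1.42% and 1.8% of all genes. The median log2 change was 0.58. Mgp, matrix Gla protein, an inhibitor of calcification that was on none of the lists, had 265 and 633 at day 8, against 5 and 5 at day 6 and 5 in all arrays of the earlier days (log2 change 5.52, adjusted p = 3.52e-14). From such a floor the size depends on the pseudocount, and with 16 in place of 4 the log2 change was 4.35 for Mgp and 4.49 for Postn. The p-value depends on the pooled spread, and Mgp was also at 5 in the null arrays of days 6 and 8. In the fit of the 4 compared arrays alone, the adjusted p was 0.0862 for Mgp, 0.0799 for Postn, 0.187 for Col6a1 and 0.216 for Tgfbi. Loxl3 (0.0152) and Emilin1 (0.0483) passed in that fit.

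**Figure D3:**
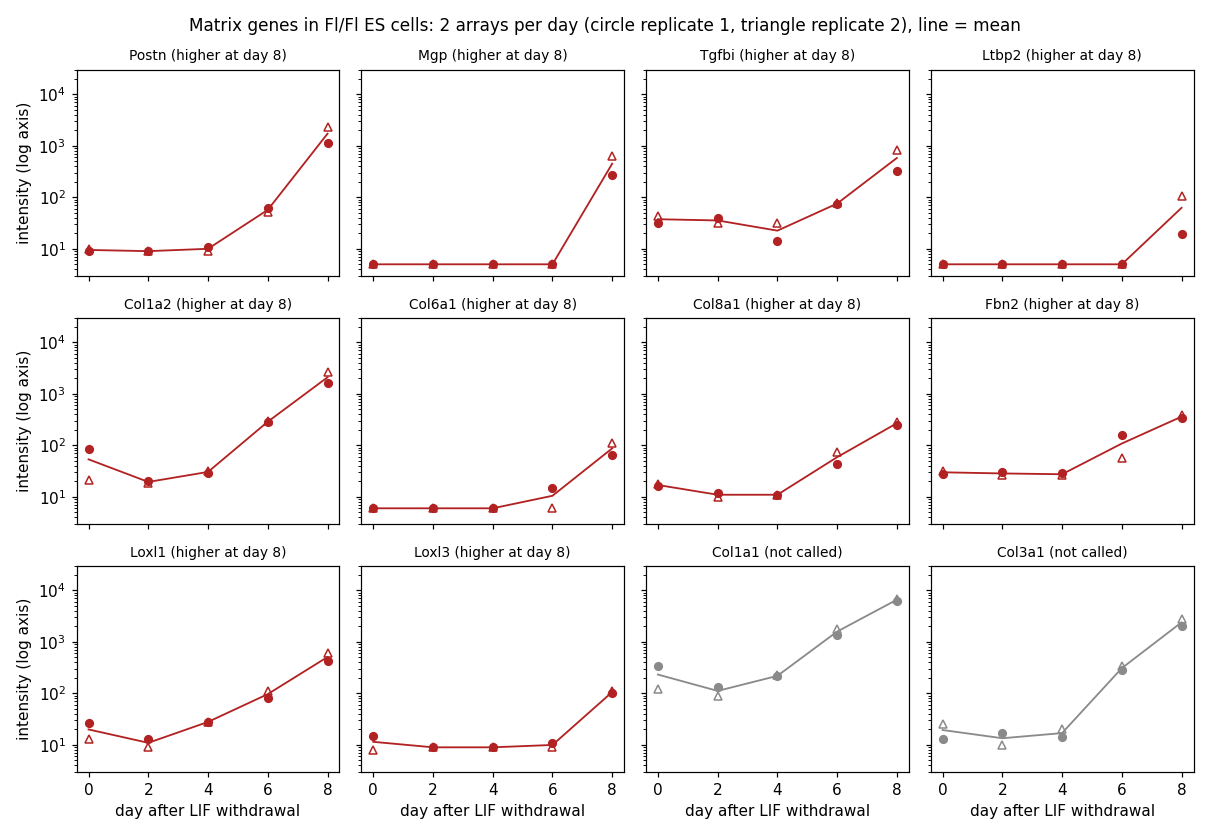
Intensity on a log axis against the day after LIF withdrawal for 12 matrix genes in Fl/Fl cells, with circles for replicate 1, triangles for replicate 2 and a line through the daily means. The 12 were picked for display, and Mgp, a matrix protein, is on none of the lists. Of the 72 listed genes that were measured, 14 were called higher, and Loxl4, called lower, is not shown. The 10 red genes were higher at day 8 than at day 6, and Col1a1 and Col3a1, in grey, did not pass. Mgp, Ltbp2 and Loxl3 are near the floor until day 6, whereas Postn, Col1a2, Loxl1 and Col3a1 have already left it at day 6.

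Over the 3 matrix lists together, 14 of 72 genes were higher, or 19.4%, beside 1.42% of all genes, and the median log2 change was 0.45. All 4 arrays were under 50 in 30 of the 72, among them the called genes Col6a3, Emilin1, Mfap4, Lum and P3h3. Of the other 42, both day 8 arrays were above both day 6 arrays in 32, below in 2 and overlapping in 8, with a median log2 change of 0.70. Among all 8378 genes with an array at or over 50, 30.5% were higher in both arrays and 36.4% lower. Of the 42, 10 were called, among them Loxl4, which was lower. Of the 14, 10 passed with any 1 of the 4 arrays left out, and the exceptions were Col8a1 and Loxl1 (each without replicate 2 of day 8 or replicate 1 of day 6), Fbn2 (without any but replicate 1 of day 6) and Lum (without replicate 2 of day 6), as was Loxl4 among the lower genes (without either replicate 2). The fit of the Fl/Fl arrays alone found 13 matrix genes higher, with Col3a1, Col11a1, Ecm1, Lox and Crtap gained and Col1a2, Col6a3, Fbn2, Lum, Ltbp2 and Tgfbi lost. Without the 40% of genes of lowest mean over all arrays, 7 matrix genes were called higher.

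Several markers of fibroblast feeder cells rose with the matrix genes. Of the 19 measured genes of that list, 6 were higher (31.6%, beside 1.42% of all genes) and 0 lower, the median log2 change was 1.32, and 6 of the 19 also stand on a matrix list. The summed intensity of the list was 12013 and 15807 at day 8, against 2329 and 2798 at day 6. This sum counts the shared matrix genes again, among them Postn (1149 and 2282 at day 8) and Col1a2 (1596 and 2597 at day 8). Both are also among the 6 called genes, so these counts are not separate from the matrix result. The stromal chemokines Ccl2 (33 and 110 at day 8, against 16 and 10 at day 6) and Cxcl12 (52 and 36 at day 8, against 15 and 7 at day 6) passed. Of the 19 genes, 11 had means under 50 on both days, and Thy1, Fap, Lcn2, Mmp3 and Prrx1 were at or under 11 in all 4 arrays. Whether cells of another kind had a part in the matrix result was not tested.

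**Figure D4:**
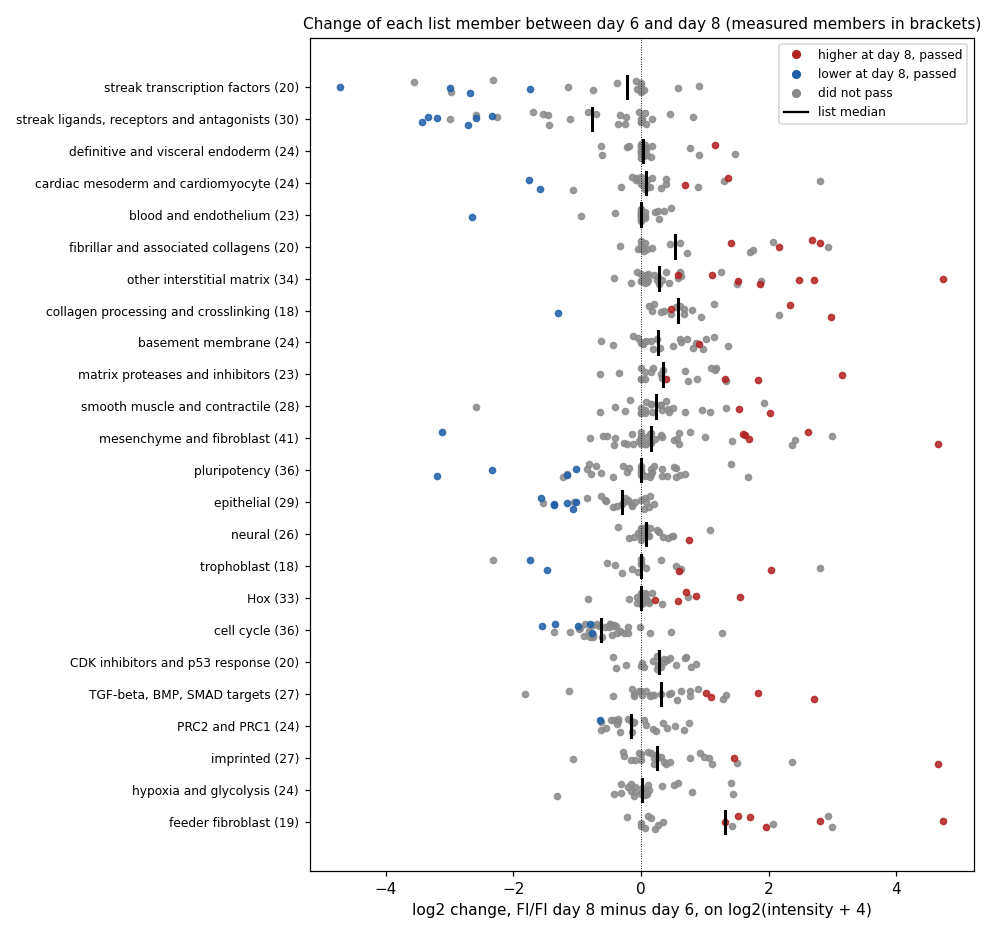
Each dot is 1 member of a gene list (measured members in brackets), placed by its log2 change from day 6 to day 8 on log2(intensity + 4). Red and blue dots passed as higher and lower, grey dots did not pass, and black bars mark list medians. The streak lists hold 10 blue dots and no red one, the matrix lists 14 red dots and 1 blue, and the cell cycle list lies mostly left of 0 with a median of -0.63.

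The course before day 6 was used to describe when the called genes began to change. The interval from day 4 to day 6 called 337 genes higher (1.85%) and 292 lower (1.6%), and day 6 against day 0 called 2446 higher (13.4%) and 3501 lower (19.2%). Both comparisons share the day 6 arrays with the comparison of day 8 against day 6, and the counts below are a description.

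Of the 259 genes higher at day 8, 74 (28.6%) changed at least 2-fold from means under 50 on each of days 0, 2, 4 and 6 and are called late onset here. Of these, 8, Adgra2 and Ankrd1 among them, also passed as higher at day 6 than at day 4. The 6 largest were Mgp, Dlk1, Tm4sf1, Tdo2, Loxl3 and Adgra2. Tm4sf1 and Loxl3 also passed in the limma fit of the 4 compared arrays alone, with adjusted p of 0.0103 and 0.0152. Mgp, Dlk1, Tdo2 and Adgra2 did not (0.0862, 0.084, 0.145 and 0.156). Dlk1, an imprinted Notch-like protein of fetal mesenchyme, had 876 and 1493 at day 8, against 32 and 54 at day 6 (log2 change 4.65, adjusted p = 4.1e-07). Tm4sf1, a tetraspanin-like surface protein, had 157 and 194 at day 8, against 4 and 4 at day 6 (log2 change 4.48, adjusted p = 1.03e-07). Tdo2, which breaks down tryptophan, had 101 and 292 at day 8, against 5 and 5 at day 6, and Adgra2, an adhesion receptor that serves Wnt7 signalling in vessels, had 237 and 451 at day 8, against 32 and 51 at day 6.

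A continued rise, called in both intervals, was found in 33 genes (12.7% of the 259). Among its members were Postn, Col1a2, Tgfbi, Serpinf1 and Igfbp5. Igfbp5, an insulin-like growth factor binding protein of mesenchyme, had 816 and 987 at day 8, against 153 and 133 at day 6 (log2 change 2.62, adjusted p = 1.01e-10), with a mean of 4 at day 4. Serpinf1, a secreted serpin that restrains vessel growth, had 413 and 688 at day 8, against 80 and 40 at day 6 (log2 change 3.14, adjusted p = 4.72e-08). A further 9 genes (3.47%) were higher at day 8 after a fall from day 4 to day 6.

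Of the 327 genes lower at day 8, 104 (31.8%) had been higher at day 6 than at day 0 and are called transient. They included Trim54 and Igfbp3 beside Mixl1, Fgf8 and Evx1. Trim54, a muscle RING finger protein, had 27 and 11 at day 8, against 324 and 327 at day 6 (log2 change -3.93, adjusted p = 2.13e-06), after a mean of 21.5 at day 4, so that it was high at day 6 and at no other sampled day. Igfbp3 had 319 and 253 at day 8, against 2466 and 2559 at day 6 (log2 change -3.13, adjusted p = 4.72e-08), and came down from a mean of 12021 at day 4.

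A fall in both intervals was found in 48 genes (14.7%), with Nodal, Igfbp3, Cth and Epha1 among the largest. A fall after a called rise from day 4 to day 6 was found in 31 genes (9.48%). Lmo2, a LIM factor of blood and endothelial progenitors, belongs to these, with 14 and 12 at day 8, against 115 and 91 at day 6 (log2 change -2.65, adjusted p = 1.17e-05). So do Tnnc1, the slow and cardiac troponin C, with 54 and 38 at day 8, against 159 and 168 at day 6 (adjusted p = 6.03e-07), and Myl4, an atrial and fetal myosin light chain, with 16 and 12 at day 8, against 50 and 49 at day 6 (adjusted p = 0.00253).

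A direct test of the change from day 6 to day 8 against the change from day 4 to day 6 called 136 genes (0.747%), of which 62 moved more upward in the last interval and 74 more downward. Of the streak genes 2 of 50 (4%) were among them, and of the matrix genes 6 of 72 (8.33%). Loxl3 changed by 2.98 on the log2 scale from day 6 to day 8 and by 0.10 from day 4 to day 6 (difference 2.88 ± 0.33, SE, adjusted p = 1.9e-05). Postn changed by 4.74 in the last interval and by 2.12 before it (difference 2.62, adjusted p = 0.00885), and Col6a1 by 2.68 and 0.46 (difference 2.22, adjusted p = 0.00422). For Mixl1, Fgf8 and the other called streak genes the difference between the intervals did not pass, so a sharper fall after day 6 than before it was not shown for them.

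**Figure D5:**
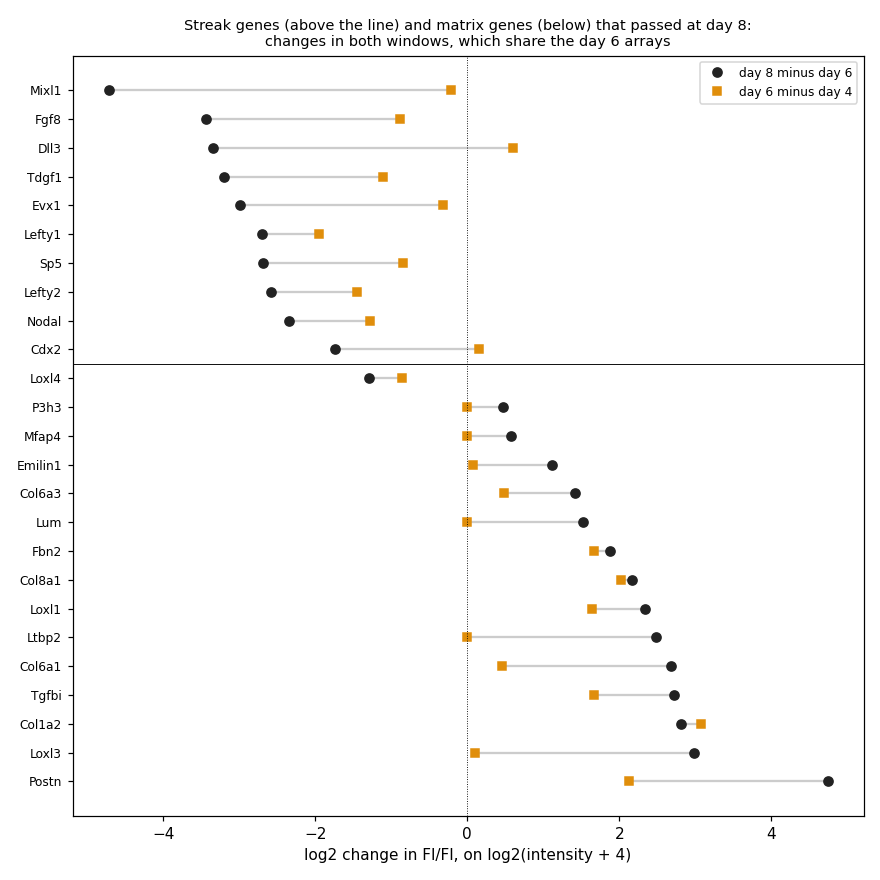
Rows are the streak genes (above the line) and matrix genes (below) that passed, with the log2 change from day 6 to day 8 as black circles and from day 4 to day 6 as orange squares. Mixl1 has almost no change before day 6 and -4.72 after it, whereas Col8a1, Fbn2 and Col1a2 have similar changes in both intervals.

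Outside the lists, the largest changes reached other kinds of genes. Plet1, a surface protein of trophoblast and progenitor cells, had 28 and 11 at day 8, against 244 and 220 at day 6 (log2 change -3.43, adjusted p = 6.66e-05). Nefl, the light neurofilament chain, had 272 and 155 at day 8, against 1381 and 1683 at day 6 (log2 change -2.87, adjusted p = 7.29e-05). Gas6, the ligand of the TAM receptor kinases, had 392 and 635 at day 8, against 46 and 53 at day 6 (log2 change 3.24, adjusted p = 7.25e-06). Spink1, a trypsin inhibitor, had 262 and 526 at day 8, against 16 and 13 at day 6 (log2 change 4.35, adjusted p = 0.0461), and was not new at day 8, since its mean at day 0 was 163.5. The molybdenum cofactor gene Mocs1 (13 and 53 at day 8, against 274 and 264 at day 6) and the gene Parm1 (88 and 110 at day 8, against 9 and 13 at day 6) complete the 12 largest changes of each direction.

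Some epithelial and cell cycle genes were lower as well. Of 29 epithelial genes, 6 were lower (20.7%, beside 1.8% of all genes) and 0 higher, with a median log2 change of -0.29. Cdh1, E-cadherin, had 3841 and 3366 at day 8, against 7202 and 7350 at day 6 (log2 change -1.02, adjusted p = 0.00796). Epcam, a surface adhesion molecule of epithelia, had 769 and 667 at day 8, against 1491 and 1714 at day 6 (log2 change -1.15, adjusted p = 5.05e-05), while another Epcam probe set overlapped, with 260 and 260 at day 8 against 301 and 252 at day 6. Esrp1, an epithelial splicing factor, had 99 and 56 at day 8, against 204 and 258 at day 6 (log2 change -1.57, adjusted p = 0.00133). Both arrays of day 8 were below both arrays of day 6 for 18 of the 29 genes and above for 2. The shares were 36.4% lower and 30.5% higher in both arrays over all 8378 genes with an array at or over an intensity of 50. Dim genes are left out of these shares, while 4 of the 29 had means under 50 on both days.

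Of 36 cell cycle genes, 5 were lower (13.9%, beside 1.8% of all genes) and 0 higher, with a median log2 change of -0.63. Both day 8 arrays were below both day 6 arrays in 31 of the 36 and above in 2. Of all 8378 genes with an array at or over an intensity of 50, 36.4% were lower and 30.5% higher in both arrays. Only 1 of the 36 had means under 50 on both days. Ccnd1, the G1 cyclin D1, had 2180 and 1589 at day 8, against 3871 and 3534 at day 6 (log2 change -0.99, adjusted p = 0.00651). Orc1, a subunit of the replication origin complex, had 40 and 21 at day 8, against 85 and 103 at day 6 (log2 change -1.56, adjusted p = 0.00538). The exceptions included Ccnd2, with 1751 and 1529 at day 8, against 688 and 668 at day 6, which did not pass. Of 36 pluripotency genes 4 were lower (11.1%, beside 1.8% of all genes) and 0 higher. These were Tdgf1, Nodal, Epcam and Cdh1, which stand on other lists as well.

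Mesenchymal genes rose in part. Of 41 genes, 5 were higher (12.2%, beside 1.42% of all genes) and 1, Igfbp3, was lower. Prrx2, a paired homeobox factor of limb and head mesenchyme, had 328 and 356 at day 8, against 97 and 109 at day 6 (log2 change 1.69, adjusted p = 0.00628). Snai2, a repressor that acts in epithelial to mesenchymal transition, had 83 and 71 at day 8, against 30 and 17 at day 6 (log2 change 1.60, adjusted p = 1.52e-07). Vim, vimentin, was abundant at both days and overlapped, with 23619 and 18269 at day 8 against 25055 and 21067 at day 6.

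Among 27 genes of TGF-beta and BMP signalling, 4 were higher (14.8%, beside 1.42% of all genes) and 0 lower. These were Tgfbi, which also stands on a matrix list, Smad6, Grem1 and Inhba. Inhba stayed under 50, with 26 and 18 at day 8, against 7 and 9 at day 6. Smad6, an inhibitory SMAD, had 51 and 60 at day 8, against 21 and 7 at day 6 (log2 change 1.84, adjusted p = 0.000313). Among 23 proteases and inhibitors, 4 were higher (17.4%, beside the same 1.42%) and 0 lower. Mmp2, the gelatinase A of mesenchyme, had 234 and 317 at day 8, against 110 and 104 at day 6 (adjusted p = 0.00426). Of 24 basement membrane genes only Lama4 was higher (4.17%), at 9 and 23 at day 8, against 6 and 6 at day 6. Of 28 smooth muscle and contractile genes 2 were higher (7.14%) and 0 lower. Csrp2, a LIM protein of smooth muscle, had 4011 and 5103 at day 8, against 1507 and 1605 at day 6 (adjusted p = 0.000206).

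Markers of the lineages that can follow the streak were mostly dim. Of 24 endoderm genes only Ttr was called, as higher (4.17%, beside 1.42% of all genes). Ttr had 13 and 46 at day 8, against 9 and 9 at day 6, and Afp, Apoa1 and Apob were at or under 9. Of 24 cardiac genes 2 were higher and 2 lower (8.33% each, beside 1.42% and 1.8% of all genes). Tbx20, a T-box factor of the heart, had 180 and 271 at day 8, against 97 and 72 at day 6 (adjusted p = 0.0489). Of 23 blood and endothelial genes only Lmo2 was called, as lower (4.35%). The defining genes Pecam1, Cdh5, Gata1 and Ptprc were at or under 5 at both days.

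Of 33 Hox genes 5 were higher (15.2%, beside 1.42% of all genes) and 0 lower, and 30 of the 33 had means under 50 on both days. Hoxd8 had the largest change, with 82 and 66 at day 8, against 23 and 22 at day 6 (log2 change 1.55, adjusted p = 4.6e-08). Another Hoxd8 probe set did not follow it, with 53 and 29 at day 8, against 45 and 38 at day 6. Of 27 imprinted genes 2, Dlk1 and Igf2r, were higher (7.41%). Igf2 had 10683 and 17215 at day 8, against 3109 and 2197 at day 6 without passing. Of 26 neural genes 1 was higher (3.85%), and of 18 trophoblast genes 2 were higher and 2 lower (11.1% each). Of 24 Polycomb genes 1, Pcgf6, was lower (4.17%). Over all genes 1.42% were higher and 1.8% lower, and a single call says little about a list of this size. With limma, 0 of 20 CDK inhibitors and p53 targets and 0 of 24 hypoxia and glycolysis genes passed, and at an unadjusted p under 0.05 there were 1 and 0.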

How the data were processed

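The deposited table holds 1 intensity per probe set and array, on a linear scale as the values show. What the authors did to correct and normalize these intensities was not given in the sources used here. Of 45101 probe sets, 34958 name 1 gene in GEO's platform annotation, 932 name several and 9211 none; the last 2 kinds were left out, and 34754 were matched to the RefSeq gene table by ID. For each of 18194 genes the probe set with the highest mean over all 30 arrays was kept. Values were analysed as log2(intensity + 4), so changes of dim genes are understated. limma 3.58.1 (R 4.3.3) was run with a mean for each genotype and day across the 30 arrays (20 residual degrees of freedom), with Benjamini-Hochberg adjustment over all genes and a threshold of 0.05. The number of arrays limits the precision. The script was tested on simulated data. Alternatives were another pseudocount, quantile scaling, centring, a filter on dim genes, fewer arrays, probe set means, a minimum fold, a replicate block and each array left out. Genes named were taken from the streak and matrix lists and the 12 largest changes each way. These changes were ranked among called genes with non-overlapping arrays, with unnamed gene models left out. Up to 4 genes of each other list with the smallest adjusted p and the 6 largest of each course class were added. Not all of these are printed. Other genes were chosen after their values were seen, and are marked as such or given as examples of list members. Apart from Prrx2, which passed, these examples did not pass. The comparison, the lists and their members were chosen with earlier results of these data known.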

Additional observations from a re-analysis of the deposited data

Results flagged for a closer look

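The change from day 6 to day 8 differed from the change from day 4 to day 6 in 136 genes by a limma test of that difference. Among the streak and matrix genes these were 8. Apela, a peptide ligand of the apelin receptor, had a difference of 5.65 (log2 scale, last interval minus the one before), with 1579 and 1707 at day 4, 34 and 83 at day 6 and 119 and 79 at day 8. Notum differed between the intervals by -2.35, with 13 and 15 at day 4, 124 and 119 at day 6 and 223 and 127 at day 8. Tnc differed by -4.84, with 14 and 26 at day 4, 811 and 930 at day 6 and 1179 and 1105 at day 8. Postn (2.62), Loxl3 (2.88), Col6a1 (2.22), Emilin1 (1.03) and P3h3 (0.47) changed more upward in the last interval, the last pair at intensities under 50.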

How the results depend on the processing

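No alternative turned the sign of a named call, but for most alternatives this outcome was fixed in advance. Fits that differ only in the other arrays, the filter, the block or the test keep the same log2 change. For genes whose day 8 and day 6 arrays do not overlap, leaving out 1 array or changing the pseudocount cannot turn the sign either. Of 90 named called genes, 88 kept their call with a pseudocount of 16, 83 after quantile scaling, 80 after centring, 61 in the Fl/Fl arrays alone, 14 with only the arrays of the compared days, 36 under treat with a fold of 1.5 (which tests against that fold instead of 0), and 75, 56, 58 and 62 without day 8 replicate 1, day 8 replicate 2, day 6 replicate 1 and day 6 replicate 2. Day 8 against day 6 called 895 genes with only the arrays of the compared days (664 higher, 231 lower), 61 under treat, and 263 to 606 with 1 array left out. Streak genes lower numbered 17 in the Fl/Fl arrays alone, 4 in the compared days, 4 under treat and 4 to 7 with 1 array left out. Matrix genes higher numbered 7 without the 40% of dimmest genes, 8 in the compared days, 7 under treat and 11 to 14 with 1 array left out. The difference between intervals was called for 73 genes without the dimmest 40%, 232 in the compared days, 33 under treat and 102 to 240 with 1 array left out. Day 6 against day 4 called 629 genes, and 1255 in the Fl/Fl arrays alone, 1059 with the replicate block, 89 under treat and 279 to 436 with 1 array left out. Day 6 against day 0 called 5947, and 1752 under treat and 3883 to 4210 with 1 array left out. Same-numbered arrays of different days correlated at 0.0071 to 0.213 in their deviations, so the numbers were not taken to pair the arrays; with the replicate block in the Fl/Fl arrays, day 8 against day 6 called 702 genes, 12 streak genes lower and 11 matrix genes higher. Where a day keeps 1 array, that array is assumed to vary like the other groups. The causes of these differences were not tested. With 2 arrays a day, a missing call does not show that a gene stayed level, and at intensities under 50 the size of a change has little meaning.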

Other observations

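Genes known as interferon targets and of antigen presentation, looked at after Gbp2 and Erap1 appeared among the largest falls, were lower at day 8 in part. Of 22 such genes chosen after these values were seen, 6 were lower and 1 was higher, beside 1.8% and 1.42% of all genes, and the 6 include Gbp2 and Erap1 themselves. Gbp2, an interferon-induced GTPase, had 571 and 409 at day 8, against 3297 and 3622 at day 6 (log2 change -2.83, limma adjusted p = 0.00358). Erap1, which trims peptides for class I molecules, had 16 and 13 at day 8, against 185 and 145 at day 6 (adjusted p = 4.07e-05). Gbp7 had 22 and 19 at day 8, against 136 and 115 at day 6 (adjusted p = 0.000725), and H2-D1, a class I heavy chain, had 322 and 306 at day 8, against 937 and 901 at day 6 (adjusted p = 0.0178). Gbp2, Erap1, Gbp7 and H2-D1 had been lower at day 0 than at day 6. The light chain B2m did not fall, with 3247 and 2837 at day 8, against 2672 and 2698 at day 6, and the interferon targets Ifit1, Irf7 and Irf8 stayed at or under 5.

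The noncoding RNA Xist, also chosen after its values were seen, had 85 and 152 at day 8, against 7 and 25 at day 6 (adjusted p = 0.0104), and 59 and 86 at day 0. The Y-linked Eif2s3y had 163 and 130 at day 8, against 234 and 184 at day 6, and the Y-linked Kdm5d was at 7 in every Fl/Fl array.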
